A study of Mus musculus with 5 samples.

Results

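Glycolysis, the breakdown of glucose to pyruvate and lactate, was followed through 10 genes in colon tumors of mice with and without intestinal expression of human SIGLEC12. The genes were the glucose carrier Slc2a1, the enzyme genes Hk2, Gpi1, Pfkp, Aldoa, Tpi1, Pgk1, Eno1 and Pkm, and the lactate dehydrogenase gene Ldha. They were chosen by symbol, and the row with the highest mean was kept where a symbol had more than 1 row. Of the 52143 genes of the deposited table, all 10 were found by their symbols, and all 10 were among the 10338 genes that passed a filter of at least 1 TPM in at least 2 samples, where TPM is a transcript abundance scaled by length and by the total of its sample. Aldoa alone had a second row, which stayed at or below 0.22 on the log2(TPM + 1) scale and was not used.

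RNA was sequenced from colon tumors of female mice that were 8 weeks old when tamoxifen was started. The 2 Control mice, replicates 1 and 4, were Villin1-Cre-ERT animals, which carry a Cre recombinase driven by the Villin1 promoter of the intestinal epithelium and released into the nucleus by tamoxifen. The 3 SIGLEC12 mice, replicates 2, 3 and 4, were SIGLEC12-Villin1-Cre-ERT animals, which carry in addition, at the ROSA26 locus behind the CAG promoter, a human SIGLEC12 coding sequence that Cre switches on by removing a floxed EGFP cassette. Mice of both groups were given tamoxifen at 10 mg/ml for 5 days, an injection of the carcinogen azoxymethane (AOM) at 10 mg/kg, and repeated cycles of 5 days of 2.0% dextran sulfate sodium (DSS), a chemical that damages the gut lining, with 14 days of recovery between cycles, and the tumors were taken at day 87. Mice have no SIGLEC12 gene of their own, and Cre was confined by its promoter to intestinal epithelium, whereas the RNA came from whole tumor pieces. The transgene was not analysed here, so the genotype labels were not checked against it.

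Glucose enters most cells through facilitative carriers, of which Slc2a1 encodes the widespread GLUT1, and is trapped by hexokinase as glucose 6-phosphate. Phosphofructokinase makes the first step that commits sugar to glycolysis, aldolase splits the product into triose phosphates, and the enzymes from Tpi1 to Pkm turn these into pyruvate with a gain of ATP. Ldha reduces pyruvate to lactate, and tumors are widely known for making lactate even where oxygen is at hand. Several of these genes are textbook targets of the hypoxia factor HIF-1 and of MYC. Colon epithelium also burns short-chain fatty acids from gut bacteria, so glycolysis is not its only source of energy.

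The deposited values were log2(TPM + 1), in which each gene is scaled by transcript length and by the total of all RNA of its sample, so levels may be compared between genes. Protein-coding genes held 5.70% and 6.73% of the TPM in the Control samples and 8.85%, 8.75% and 9.72% in the SIGLEC12 samples, which did not overlap. Values were therefore also compared after each sample was rescaled to a common protein-coding total, here called the rescaled values. This choice, made with the deposited differences known, moved the median difference of all tested genes from 0.38 to 0.01 on the log2 scale. Tumor pieces also differed in their cells. Summed over 10 columnar epithelium markers (among them Epcam, Krt8, Vil1 and Lgals4), TPM was 315.2 and 917.8 in the Control samples and between 1112 and 1739 in the SIGLEC12 samples. Summed over 10 stratified squamous markers, TPM was 2643 in Control replicate 1 and between 366.4 and 925.9 in the other 4 samples. Krt14, a keratin of basal squamous cells, reached 10.16 log2(TPM + 1) in that sample, with Krt5 at 9.22 and Krt6a at 9.17. The list did not move as one, since Krt4, Krt13 and Sprr3 were not highest in that sample. Krt4 was at its lowest there, at 4.30. In such bulk tissue, fewer cells of a type and less RNA per cell cannot be told apart.

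All 10 genes were expressed in all 5 tumors, and the enzymes of the lower pathway stood far above the carrier and the kinases of the first steps. Aldoa was the highest at a mean of 6.49 ± 0.33 log2(TPM + 1) (SD, n = 5), which is 62.5 to 108.3 TPM. Ldha at 6.11 ± 0.36, Pkm at 6.06 ± 0.34 and Eno1 at 5.92 ± 0.42 came next, and among these neighbours Ldha exceeded Pkm in 3 of 5 samples and Pkm exceeded Eno1 in 4 of 5. Gpi1 at 5.37 ± 0.42 and Tpi1 at 5.26 ± 0.35 also changed places, with Gpi1 above Tpi1 in 3 of 5 samples. Below them stood Pgk1 at 4.94 ± 0.45, Slc2a1 at 3.76 ± 0.48, Pfkp at 2.71 ± 0.30 and Hk2 at 2.46 ± 0.36. Hk2, at 3.22 to 6.53 TPM, was the lowest of the 10 in every sample, and Aldoa the highest.

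**Figure D1:**
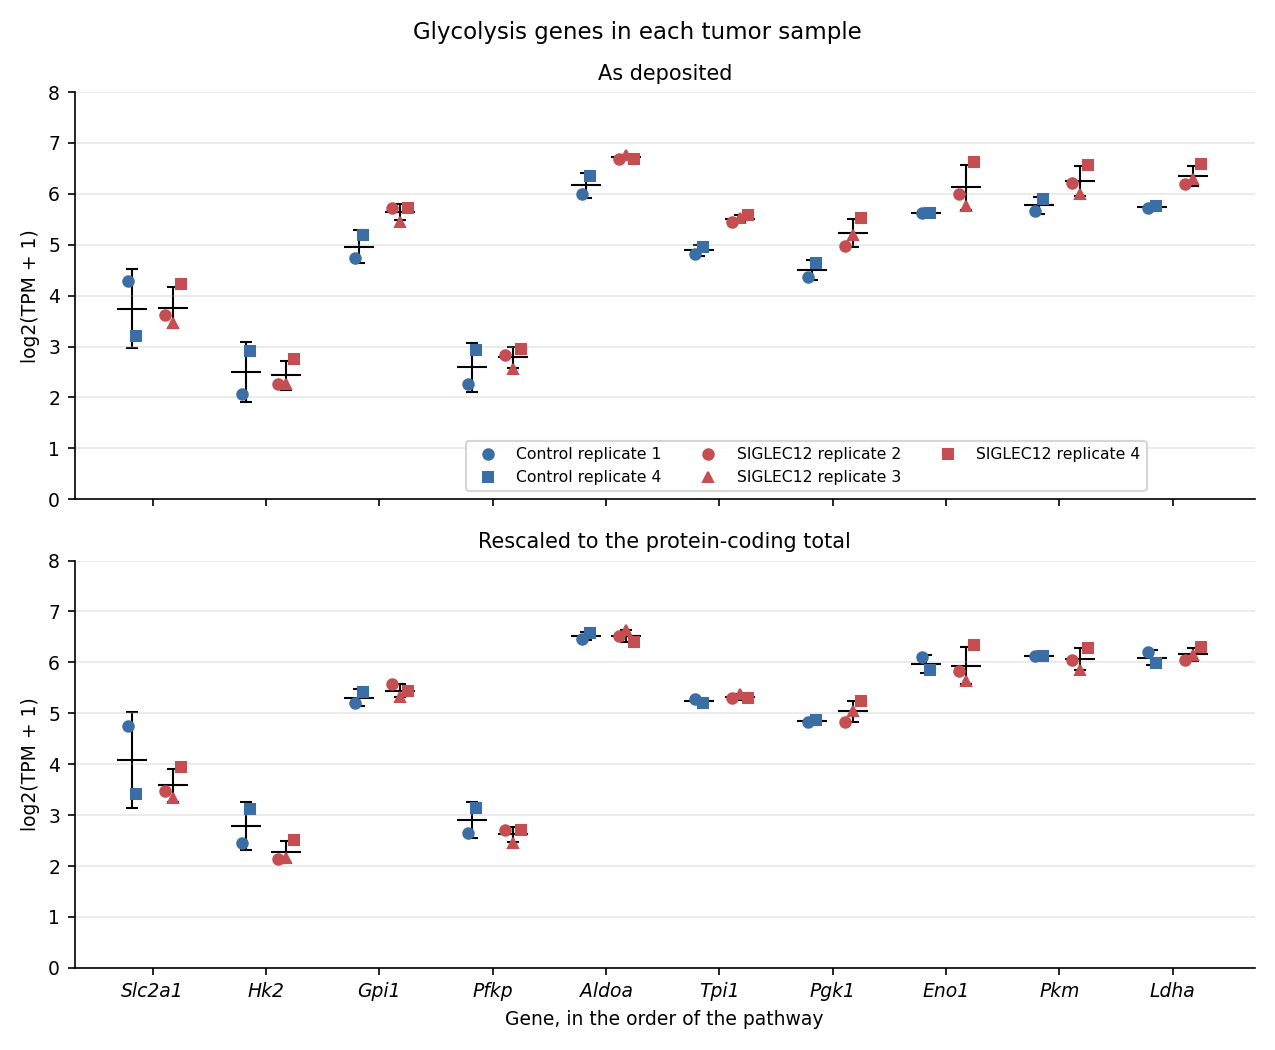
log2(TPM + 1) of the 10 genes in pathway order, as deposited (upper panel) and rescaled to the protein-coding total (lower panel), with 1 point per tumor, 2 Control and 3 SIGLEC12, and bars at the group mean ± SD. In the upper panel the groups are apart for Gpi1, Aldoa, Tpi1, Pgk1, Eno1, Pkm and Ldha and interleave for Slc2a1, Hk2 and Pfkp, and in the lower panel Tpi1 alone has the groups apart.

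The question was whether SIGLEC12 expression went with other levels of these genes. On the deposited scale, 9 of the 10 genes had a higher mean in SIGLEC12 tumors and Hk2 a lower one. Of all 10338 tested genes, 9016 had a higher mean and 1322 a lower one. The median difference was 0.53 for the 10 genes against 0.38 over all 10338 genes. None of the 10 passed limma's threshold, a 2-fold change with an adjusted p below 0.05, which called 0% of all genes in either direction. At an unadjusted p of at most 0.05, 4 of the 10 (Gpi1, Tpi1, Pgk1 and Ldha) were higher, and 33.4% of all genes met the same rule, whereas none of the 10 was lower against 0.909% of all genes. In 7 of the 10, every SIGLEC12 value lay above both Control values, as in 54.1% of all genes. For none did every SIGLEC12 value lie below both Control values, as in 1.67% of all genes. Among the 10 genes both shares were thus near those of the whole table.

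At the entry of the pathway, Slc2a1 was at 4.29 and 3.20 log2(TPM + 1) in Control replicates 1 and 4 and at 3.62, 3.46 and 4.22 in SIGLEC12 replicates 2, 3 and 4. Hk2, which encodes the hexokinase found in muscle, fat and many tumors, was at 2.08 and 2.91 in the Controls and at 2.27, 2.27 and 2.76 in the SIGLEC12 samples. Pfkp, the platelet form of phosphofructokinase, was at 2.26 and 2.94 in the Controls and at 2.84, 2.57 and 2.96 in the SIGLEC12 samples. For these 3 genes the Controls themselves spanned most or all of the range of the SIGLEC12 samples, and Control replicate 1 was the highest of the 5 samples for Slc2a1 but the lowest for Hk2 and Pfkp. The log2 differences were 0.02 (SE 0.39) for Slc2a1, -0.06 (SE 0.30) for Hk2 and 0.19 (SE 0.26) for Pfkp, with limma adjusted p of 0.967, 0.885 and 0.582. Their sign depended on which Control was kept, since Slc2a1 gave 0.57 without Control replicate 1 and -0.52 without Control replicate 4. Hk2 gave -0.48 and 0.36 under the same omissions and Pfkp -0.15 and 0.53. In Control replicate 1, where Slc2a1 was highest, the squamous markers were also at their highest sum, and their part in the Slc2a1 level was not tested.

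Between these kinases stands Gpi1, the isomerase that turns glucose 6-phosphate into fructose 6-phosphate. It was at 4.73 and 5.19 log2(TPM + 1) in the Controls and at 5.73, 5.46 and 5.73 in the SIGLEC12 samples. The SIGLEC12 samples were all above the Controls, by 0.68 on the log2 scale (SE 0.25, limma adjusted p = 0.123). Aldoa, the main aldolase of muscle and of many other tissues, was at 5.99 and 6.34 in the Controls and at 6.68, 6.77 and 6.69 in the SIGLEC12 samples, a difference of 0.55 (SE 0.23, limma adjusted p = 0.151). Here too the groups did not overlap, and the SIGLEC12 samples lay close together.

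For the triose phosphate steps, Tpi1, the triose phosphate isomerase, was at 4.82 and 4.96 log2(TPM + 1) in the Controls and at 5.44, 5.52 and 5.58 in the SIGLEC12 samples. The gap between groups was wider than the spread within either, with a difference of 0.62 (SE 0.21, limma adjusted p = 0.111). Pgk1, the phosphoglycerate kinase that makes the first ATP of the pathway, was at 4.36 and 4.65 in the Controls and at 4.98, 5.19 and 5.52 in the SIGLEC12 samples. This was the biggest difference of the 10 genes, at 0.72 (SE 0.26, limma adjusted p = 0.116). Eno1, the enolase of most tissues, was at 5.63 and 5.61 in the Controls and at 5.99, 5.77 and 6.62 in the SIGLEC12 samples, a difference of 0.51 (SE 0.31, limma adjusted p = 0.264). The Eno1 difference was 0.26 without SIGLEC12 replicate 4, which stood well above the other 4 samples.

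At the end of the pathway, Pkm, the pyruvate kinase of most tissues and tumors, was at 5.66 and 5.89 log2(TPM + 1) in the Controls and at 6.21, 5.99 and 6.57 in the SIGLEC12 samples, a difference of 0.48 (SE 0.27, limma adjusted p = 0.230). Ldha was at 5.72 and 5.76 in the Controls and at 6.19, 6.28 and 6.58 in the SIGLEC12 samples, a difference of 0.61 (SE 0.24, limma adjusted p = 0.131). For both genes every SIGLEC12 value was above both Controls, and SIGLEC12 replicate 4 was the highest sample, as it was for Tpi1, Pgk1 and Eno1. In the two-sided exact permutation test, whose smallest possible p with 2 against 3 samples is 0.1, Gpi1, Aldoa, Tpi1, Pgk1 and Ldha gave p = 0.1, and Eno1 and Pkm gave p = 0.2. The design could therefore not bring any single gene under 0.05 by that test.

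On the scale of protein-coding RNA the differences were near 0 for most of the 10 genes. After rescaling, 5 of the 10 genes were higher and 5 lower, beside 5280 higher and 5058 lower of all 10338 genes. The median was -0.02 against 0.01 over all genes. No gene of the 10 reached an unadjusted p of 0.05, against 4.45% of all genes higher and 6.31% lower, and none was called by limma's adjusted p and fold, as for 0% of all genes. Rescaled differences were 0.19 (SE 0.21) for Pgk1, 0.14 (SE 0.20) for Gpi1, 0.08 (SE 0.18) for Tpi1, 0.06 (SE 0.21) for Ldha and 0.00 (SE 0.20) for Aldoa. They were -0.04 (SE 0.28) for Eno1 and -0.07 (SE 0.22) for Pkm, and the 3 genes whose groups had overlapped before now had the lowest values, -0.27 (SE 0.20) for Pfkp, -0.49 (SE 0.43) for Slc2a1 and -0.51 (SE 0.24) for Hk2. Tpi1 alone still had every SIGLEC12 value above both Controls, against 15.6% of all genes, and no gene of the 10 was the other way, against 16.8%. The limma adjusted p after rescaling ran from 0.466 for Hk2 to 0.998 for Aldoa. Hk2 gave -0.85 when Control replicate 1 was left out and -0.18 when Control replicate 4 was, and Pfkp gave -0.52 and -0.025. Slc2a1 gave -1.16 without Control replicate 4 but 0.17 without Control replicate 1.

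**Figure D2:**
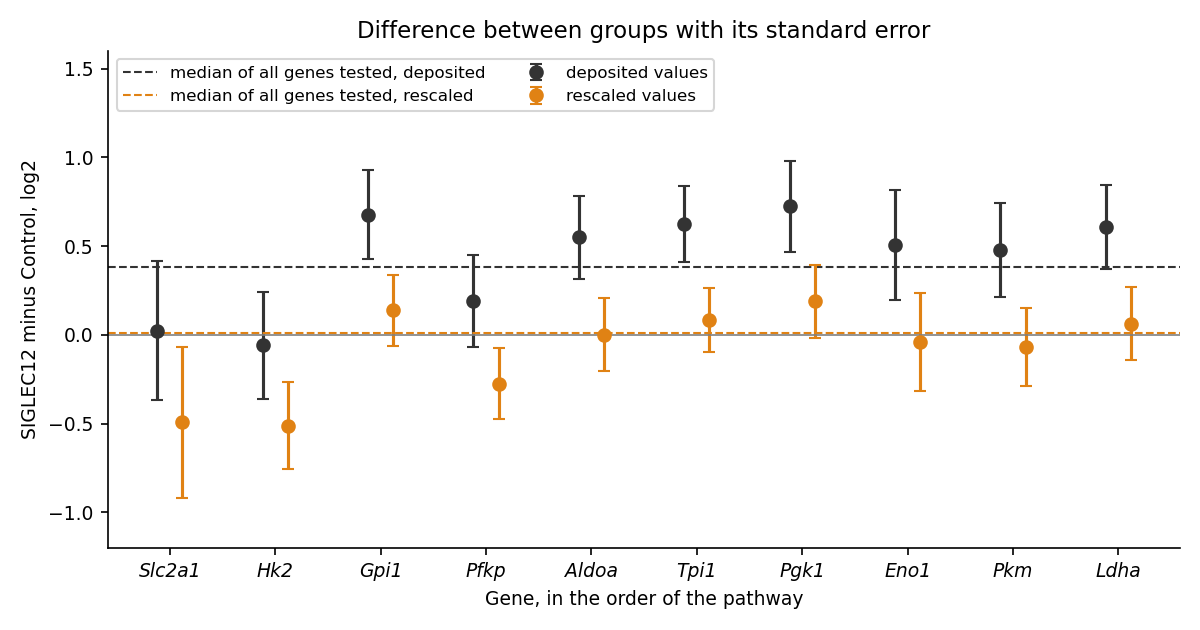
SIGLEC12 minus Control difference of each gene on the log2(TPM + 1) scale as deposited and after rescaling to a common protein-coding total, with bars of 1 standard error from limma and dashed lines at the medians of all tested genes, 0.38 and 0.01. As deposited, 9 of 10 points lie above 0, and after rescaling 5 lie on either side of it.

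Summed over the 10 genes, TPM was 310.1 and 350.9 in the Controls and 454.9, 443.0 and 561.8 in the SIGLEC12 samples. The means were 330.5 ± 28.8 (SD, n = 2) and 486.6 ± 65.4 (SD, n = 3), and the groups did not overlap. Of protein-coding TPM alone, the 10 genes made up 0.544% and 0.521% in the Controls and 0.514%, 0.506% and 0.578% in the SIGLEC12 samples. The group means were 0.533% ± 0.0165 and 0.533% ± 0.0395, so the glycolysis genes took the same mean share of coding RNA in both groups, with SIGLEC12 replicates 2 and 3 below both Controls and SIGLEC12 replicate 4 above them.

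**Figure D3:**
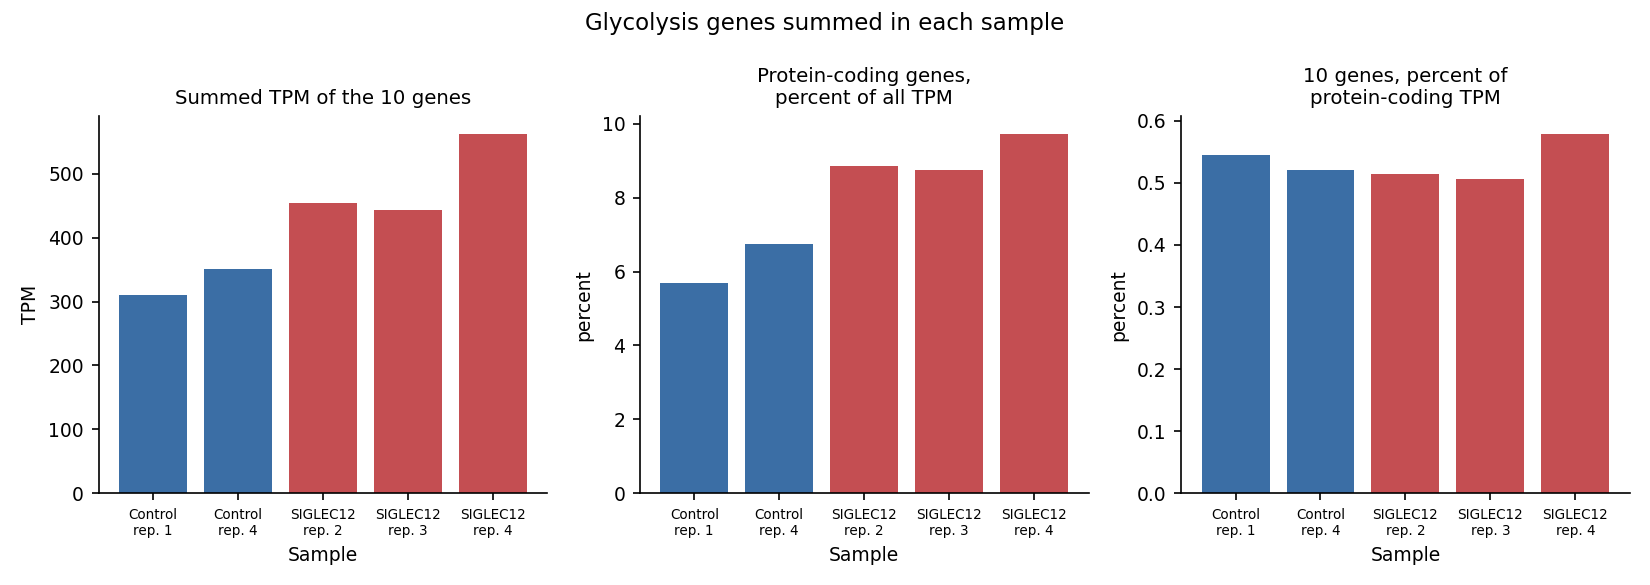
Bars for each sample of the summed TPM of the 10 genes, of protein-coding genes as a percentage of all TPM, and of the 10 genes as a percentage of protein-coding TPM, with Control and SIGLEC12 in separate colours. The first and second panels are higher in all 3 SIGLEC12 samples, whereas in the third the percentages lie between 0.506% and 0.578% with the groups interleaved.

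Scaling cannot alter the order of the genes within a sample, so the balance between them was described next. Differences of log2(TPM + 1) values, unlike the order, do shift with scaling for low genes, because of the added 1. They are given here for the deposited values. After the values were seen, Slc2a1, Hk2 and Pfkp were set against the other 7 genes, so this contrast has no test. The mean of the 3 genes was 2.40 and 2.47 below the mean of the other 7 in the Controls on the log2(TPM + 1) scale, and 2.98, 3.09 and 2.87 below it in the SIGLEC12 samples. Measured from the mean of all 10 genes in the same sample, Hk2 was at -2.48 and -1.83 in the Controls and at -2.73, -2.66 and -2.56 in the SIGLEC12 samples. On these deposited values every SIGLEC12 value of Hk2 was below both Controls, as for 19.5% of all genes measured from the same mean. On the rescaled values, taken the same way, SIGLEC12 replicate 4 was not below Control replicate 1 for Hk2. Pgk1 was at -0.19 and -0.10 in the Controls and at -0.02, 0.26 and 0.20 in the SIGLEC12 samples. Ldha, at 1.17 and 1.01 against 1.20, 1.36 and 1.26, was the other gene above both Controls in every SIGLEC12 sample, as were 10.8% of all genes. The remaining 7 genes overlapped between the groups on this scale.

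Isozymes carry out the same step from different genes, and the share of one in its family also does not depend on scaling. Slc2a1 made up 93.5% to 98.5% of the TPM of the 4 carriers GLUT1 to GLUT4, and Ldha 98.1% to 99.3% of Ldha and Ldhb together. Aldoa held 95.6% to 97.4% of aldolase TPM and Eno1 84.3% to 96.7% of enolase TPM, most of the rest being Eno3, the muscle enolase. Hk2 and Pfkp shared their steps with other genes. Hk2 made up 41.6% ± 7.69 (SD, n = 2) of hexokinase TPM in the Controls and 37.7% ± 4.82 (SD, n = 3) in the SIGLEC12 samples, with Hk1 as the main partner, and Pfkp made up 49.3% ± 8.15 and 51.4% ± 4.41 of phosphofructokinase TPM, with Pfkl as the main partner. Pgk2, the testis form of phosphoglycerate kinase, was listed at 0 in all 5 samples.

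Pyruvate kinase was the only one of the 7 families tested whose shares did not overlap. Pkm made up 97.4% and 94.6% of pyruvate kinase TPM in the Controls and 93.2%, 92.3% and 93.1% in the SIGLEC12 samples, the rest being Pklr, the form of liver and red cells. The difference was -3.15 percentage points, with a two-sided exact permutation p = 0.1, which is as low as this design goes, and 0.7 after Benjamini-Hochberg adjustment over the 7 families. Omitting Control replicate 1 gave -1.73 and omitting Control replicate 4 gave -4.56. The other 6 families gave exact permutation p of 0.4 to 0.7, each also 0.7 adjusted. Pklr itself was at 1.22 and 2.12 log2(TPM + 1) in the Controls and at 2.67, 2.64 and 2.99 in the SIGLEC12 samples. Its difference was 1.10 (SE 0.29, limma adjusted p = 0.0974) as deposited and 0.69 (SE 0.25, limma adjusted p = 0.457) after rescaling, and Pklr lay above both Controls in all 3 SIGLEC12 samples on both scales. Columnar epithelium markers were also lowest in Control replicate 1, where Pklr was lowest, and their part in the difference was not tested.

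**Figure D4:**
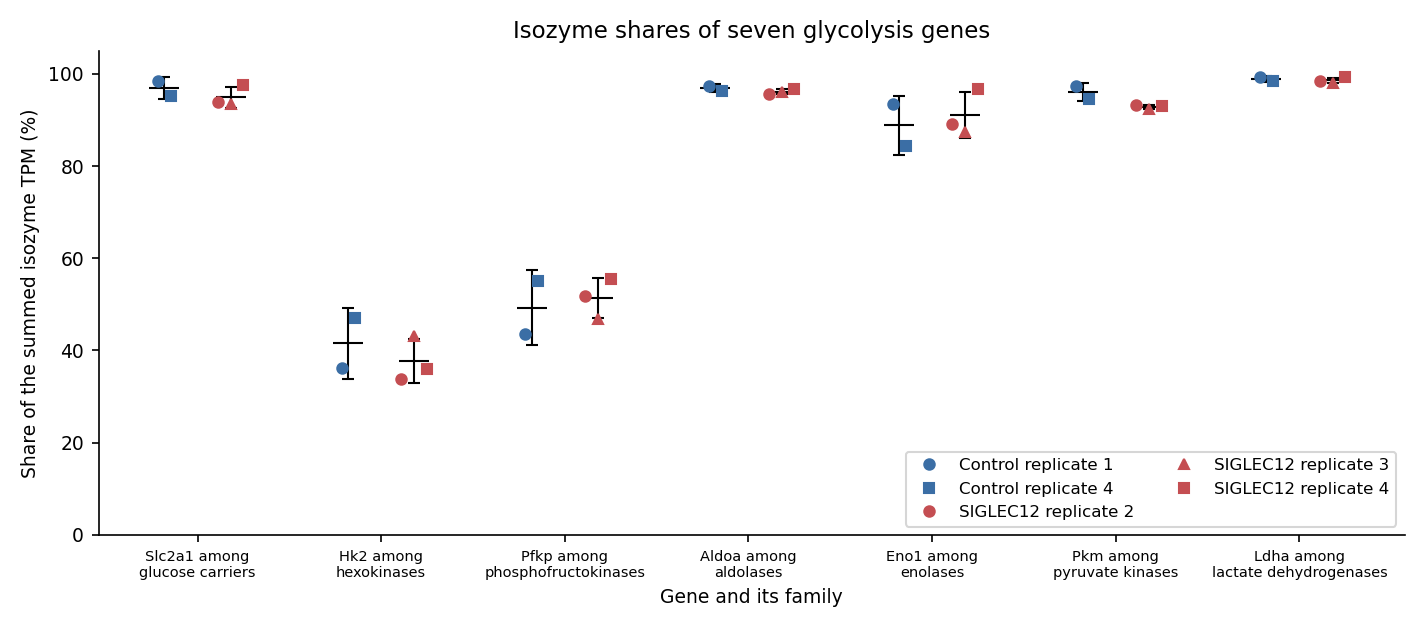
Percentage of the TPM of each isozyme family that came from the named gene, with 1 point per sample and bars at the group mean ± SD. Slc2a1, Aldoa, Pkm and Ldha hold at least 92.3% in every sample, Hk2 and Pfkp stand near the middle of the axis, and the Pkm share is lower in each SIGLEC12 sample than in either Control.

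The other genes of the glycolytic steps, from a list of 20 of which 12 passed the filter, held Gapdh and Pgam1, which have no isozyme among the 10. Of the 12, 11 had a higher mean in the SIGLEC12 samples as deposited, beside 9016 of all 10338 genes, with a median of 0.29. At an unadjusted p of at most 0.05, 3 of the 12 (Pklr, Aldoc and Bpgm) were higher, as were 33.4% of all genes. None was called by limma's adjusted p and fold. After rescaling 6 were higher and 6 lower, with a median of -0.02. At that p, 1 (Pklr) was then higher and 1 (Pfkl) lower, beside 4.45% of all genes higher and 6.31% lower. Gapdh, the dehydrogenase between Tpi1 and Pgk1 and a common loading control, was at 6.71 and 6.94 log2(TPM + 1) in the Controls and at 7.16, 7.20 and 7.85 in the SIGLEC12 samples. Its difference was 0.58 (SE 0.30, limma adjusted p = 0.200) as deposited and 0.03 (SE 0.25, limma adjusted p = 0.963) after rescaling. Pgam1, the mutase before enolase, had a difference of 0.24 (SE 0.24) as deposited and -0.29 (SE 0.27) after rescaling. Pfkl, the liver phosphofructokinase, was nearly level as deposited at -0.01 (SE 0.16), and after rescaling was at -0.47 (SE 0.13, limma adjusted p = 0.457), so that Pfkl and Pfkp were both lower in mean on that scale. Pfkm, the remaining phosphofructokinase, at a mean of only 0.953 TPM, was higher in mean on both scales. Its difference was 0.33 (SE 0.22) as deposited and 0.09 (SE 0.22) after rescaling.

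Among carriers of glucose and lactate, 4 of 9 passed the filter. All 4 had a higher mean in the SIGLEC12 samples as deposited, beside 9016 of all 10338 genes, with a median of 0.71. After rescaling 3 were higher and 1 lower, with a median of 0.27. At an unadjusted p of at most 0.05, 2 of the 4 (Bsg and Slc16a1) were higher as deposited, beside 33.4% of all genes, and 0 after rescaling. Bsg, which encodes basigin, the chaperone of the lactate carriers, was at 5.07 and 5.31 log2(TPM + 1) in the Controls and at 6.02, 6.23 and 5.99 in the SIGLEC12 samples. The difference was 0.89 (SE 0.23, limma adjusted p = 0.0974) as deposited and 0.35 (SE 0.21, limma adjusted p = 0.514) after rescaling, without overlap on either scale. Slc16a1, the lactate carrier MCT1, was at 2.67 and 2.80 in the Controls and at 3.76, 3.19 and 3.51 in the SIGLEC12 samples, a difference of 0.75 (SE 0.23, limma adjusted p = 0.101) that was 0.27 (SE 0.21) after rescaling. The hypoxia-linked lactate carrier Slc16a3 differed by 0.66 (SE 0.36) and the sodium-coupled glucose carrier Slc5a1 by 0.29 (SE 0.26) as deposited. After rescaling Slc16a3 differed by 0.28 (SE 0.39) and Slc5a1 by -0.15 (SE 0.22).

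Where pyruvate enters mitochondria, 11 of 12 genes passed the filter. As deposited all 11 had a higher mean in the SIGLEC12 samples, beside 9016 of all 10338 genes, with a median of 0.61. After rescaling 8 were higher and 3 lower, with a median of 0.14. At an unadjusted p of at most 0.05, 8 of the 11 were higher as deposited, beside 33.4% of all genes, and 1 (Mpc1) after rescaling, beside 4.45% of all genes. Mpc1, a subunit of the mitochondrial pyruvate carrier, was at 2.94 and 3.78 log2(TPM + 1) in the Controls and at 4.35, 4.72 and 4.64 in the SIGLEC12 samples, a difference of 1.21 (SE 0.30, limma adjusted p = 0.0974). On the rescaled values Mpc1 gave 0.70 (SE 0.26) and its partner Mpc2 gave 0.43 (SE 0.21). Pdk1, the kinase that turns pyruvate dehydrogenase off, was at 2.30 and 2.21 in the Controls and at 3.08, 2.89 and 2.99 in the SIGLEC12 samples, a difference of 0.74 (SE 0.17, limma adjusted p = 0.0974) as deposited and 0.28 (SE 0.16) after rescaling. Dlat, a core subunit of pyruvate dehydrogenase, had the smallest difference of the 11 as deposited, 0.32 (SE 0.18), and was at -0.09 (SE 0.13) after rescaling.

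The pentose phosphate pathway branches off at glucose 6-phosphate, and all 8 of its listed genes passed the filter. As deposited 7 had a higher mean, beside 9016 of all 10338 genes, with a median of 0.57. After rescaling 5 were higher and 3 lower, with a median of 0.13. At an unadjusted p of at most 0.05, 3 of the 8 (Taldo1, Pgls and H6pd) were higher as deposited, near the 33.4% of all genes, and 0 after rescaling. Its rate-limiting enzyme, G6pdx, was at 4.09 and 3.07 log2(TPM + 1) in the Controls and at 3.63, 3.18 and 3.69 in the SIGLEC12 samples. G6pdx thus stood highest in Control replicate 1, as Slc2a1 did, with a difference of -0.08 (SE 0.35) as deposited and -0.59 (SE 0.39) after rescaling. Of 12 genes of fructose 2,6-bisphosphate metabolism and the reverse steps, 7 passed the filter. All 7 had a higher mean as deposited, beside 9016 of all 10338 genes, with a median of 0.18. After rescaling 1 was higher and 6 lower, with a median of -0.13. At that p, 2 (Fbp2 and G6pc3) were higher as deposited and 0 after rescaling. Fbp2, a fructose bisphosphatase, had the biggest difference there as deposited at 1.26 (SE 0.45, limma adjusted p = 0.117), G6pc3 had 0.40 (SE 0.15), and Pfkfb2 was level at 0.01 (SE 0.21). After rescaling Pfkfb2 was at -0.38 (SE 0.16), with every SIGLEC12 value below both Controls, as in 16.8% of all genes. G6pc3 was then at -0.0052 (SE 0.11) and Fbp2 at 0.80 (SE 0.42).

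Transcription regulators of glycolysis had a median below that of all genes as deposited. Of the 12 listed, 11 passed the filter. As deposited 10 had a higher mean, beside 9016 of all 10338 genes, with a median of 0.31. After rescaling 4 were higher and 7 lower, with a median of -0.03. Egln3, an oxygen sensor that marks HIF for decay and is itself a HIF target, was at 0.72 (SE 0.26, limma adjusted p = 0.118). It was the 1 gene of the 11 higher as deposited at an unadjusted p of at most 0.05, beside 33.4% of all genes. Hif1a had the lowest difference, at 4.56 and 3.89 log2(TPM + 1) in the Controls and 3.63, 3.63 and 5.02 in the SIGLEC12 samples, which is -0.13 (SE 0.48). After rescaling the Hif1a difference was -0.66 (SE 0.48). Myc was at 2.69 and 2.70 in the Controls and 2.85, 2.69 and 2.78 in the SIGLEC12 samples. The Myc difference was 0.08 (SE 0.17) as deposited and -0.39 (SE 0.15, limma adjusted p = 0.457) after rescaling. Myc was the 1 gene of the 11 lower after rescaling at an unadjusted p of at most 0.05, beside 6.31% of all genes. All 12 hypoxia targets outside glycolysis passed the filter. As deposited 10 had a higher mean, beside 9016 of all 10338 genes, with a median of 0.45. After rescaling 8 were higher and 4 lower, with a median of 0.07. At that p, 4 of the 12 (Ddit4, Bnip3l, Ndrg1 and Vegfa) were higher as deposited, near the 33.4% of all genes. After rescaling 1 (Ddit4) was, beside 4.45% of all genes. Ddit4, an inhibitor of mTORC1, was the highest at 1.13 (SE 0.23, limma adjusted p = 0.0974), and P4ha2, a collagen prolyl hydroxylase, the lowest at -0.31 (SE 0.23).

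The starts of the 10 genes were read for the letters that HIF and MYC are known to bind. RefSeq gives 16 starts for the 10 genes on GRCm38.p6, and windows of 300 bases, from 250 before to 50 after each start, were searched on both strands for ACGTG and GCGTG, the core letters of the hypoxia response element, and for CACGTG, the E-box of MYC, which holds ACGTG on both strands. ACGTG or GCGTG was found in 12 of the 16 windows, against 43.8% of all 32851 RefSeq windows. By gene, 8 of the 10 had a match in at least 1 window, and no share by gene was taken for comparison. Windows of nearby starts overlap, so that starts 2 and 3 of Aldoa hold the same site, as do starts 2 and 3 of Eno1 for 2 sites. The windows of the 10 genes were also richer in GC, with a median of 65.2% against 52.7%, and among windows with at least 50% GC, as all 16 had, the share with either motif was 56.9%. Gpi1 and Tpi1 had neither motif in these windows. CACGTG was found in 1 of the 16 windows, that of Ldha, against 7.15% of all windows. A match is only a match of letters and was not tested for binding.

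The windows of Slc2a1, Pgk1 and Ldha are printed because they belong to the carrier, whose groups overlapped, and to the enzymes that stood above the Controls in every SIGLEC12 sample relative to the 10-gene mean. Capitals mark ACGTG and GCGTG, their reverse complements CACGT and CACGC, and CACGTG. They run 5′ to 3′ on the plus strand of GRCm38.p6, Slc2a1 from chr4:119108495-119108794, Pgk1 from chrX:106186850-106187149 and Ldha, from the first of its 2 starts, from chr7:46845554-46845853.
Slc2a1: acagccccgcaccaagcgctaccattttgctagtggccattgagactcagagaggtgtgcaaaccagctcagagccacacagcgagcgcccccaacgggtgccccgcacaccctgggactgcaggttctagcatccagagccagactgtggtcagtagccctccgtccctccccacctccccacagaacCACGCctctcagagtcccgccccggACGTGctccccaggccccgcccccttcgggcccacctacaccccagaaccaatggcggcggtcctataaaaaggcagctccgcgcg
Pgk1: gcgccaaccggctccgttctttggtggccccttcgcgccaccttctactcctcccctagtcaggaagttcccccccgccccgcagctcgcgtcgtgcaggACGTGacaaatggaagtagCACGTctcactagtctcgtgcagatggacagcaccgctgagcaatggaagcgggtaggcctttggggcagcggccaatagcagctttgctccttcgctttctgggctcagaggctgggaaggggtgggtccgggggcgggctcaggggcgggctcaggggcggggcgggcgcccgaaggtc
Ldha: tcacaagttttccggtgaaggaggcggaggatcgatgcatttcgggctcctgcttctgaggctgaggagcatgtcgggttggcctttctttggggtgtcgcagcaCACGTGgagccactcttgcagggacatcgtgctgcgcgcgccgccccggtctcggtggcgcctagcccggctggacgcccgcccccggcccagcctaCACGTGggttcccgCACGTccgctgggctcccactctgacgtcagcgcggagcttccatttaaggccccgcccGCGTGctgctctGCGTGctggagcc
The Slc2a1 window held 2 matches, 61 and 36 bases before the start, and the Pgk1 window 2 matches 150 and 131 bases before it. The Ldha window held 7 matches counted over both strands, including 2 CACGTG, which count once on each strand.

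The 10 genes lie on 5 autosomes and the X chromosome. On GRCm38, with GENCODE gene bounds, Slc2a1 (ENSMUSG00000028645) spans chr4:119108711-119137983 and Eno1 (ENSMUSG00000063524) chr4:150236721-150248879. On chromosome 6 lie Hk2 (ENSMUSG00000000628) at chr6:82725025-82774454 and Tpi1 (ENSMUSG00000023456) at chr6:124810586-124814296. Chromosome 7 holds Gpi1 (ENSMUSG00000036427) at chr7:34201330-34230336, Ldha (ENSMUSG00000063229) at chr7:46841475-46855627 and Aldoa (ENSMUSG00000030695) at chr7:126795234-126800751. Pfkp (ENSMUSG00000021196) is at chr13:6579768-6648777, Pkm (ENSMUSG00000032294) at chr9:59656368-59679375 and Pgk1 (ENSMUSG00000062070) at chrX:106187100-106203699. Some of their transcript sequence is shared with other genes, which matters because short reads from shared stretches are divided by estimation. Pgk1 shared 54.7% of its 31-base words with 6 other genes, none of which reached 1 TPM in any sample, with Pgk1-ps1 the highest at 0.0326 TPM. Pkm shared 34.7%, Eno1 28.5%, Gpi1 21.6%, Ldha 19.6% and Aldoa 17% of theirs, whereas Hk2 shared 0.235%. Levels of genes with much shared sequence are thus less certain than that of Hk2, although the Pgk1 copies themselves were listed near 0.

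Markers of other cells in the tumor pieces were measured beside these genes. Of 10 columnar epithelium markers 9 passed the filter. All 9 had a higher mean in the SIGLEC12 samples on both scales, beside 9016 of all 10338 genes as deposited and 5280 after rescaling. The median was 1.33 as deposited and 0.79 after rescaling, against 0.38 and 0.01 over all genes. Of 10 stratified squamous markers 9 passed, 7 with a lower mean, with a median of -0.94 as deposited and -1.42 after rescaling. Fibroblast markers, 7 of 8 tested, had a median of 0.79 as deposited and 0.43 after rescaling. Their summed TPM was 11.3 and 11.4 in the Controls and between 19.3 and 63.8 in the SIGLEC12 samples. Skeletal muscle markers, 7 of 9 tested, summed to 0.852 and 22.0 TPM in the Controls and 36.1, 80.3 and 17.5 in the SIGLEC12 samples, and muscle is rich in Aldoa, Eno3 and Pkm. Myeloid markers, 6 of 8 tested, had a median of 0.46 as deposited and 0.15 after rescaling. Neutrophil markers, 3 of 6 tested, had 0.26 and -0.22, and smooth muscle markers, 7 of 8 tested, had 0.31 and -0.19. The medians of these 2 lists were below those of all genes on both scales. Erythroid markers passed for 1 of 5 genes, at 1.48 as deposited and 1.20 after rescaling, and no endothelial (6) or lymphocyte (8) marker passed. Proliferation genes, all 10 tested, had a higher mean in 10 as deposited, beside 9016 of all 10338 genes, and in 8 after rescaling. Their median was 0.59 as deposited and 0.17 after rescaling. The part of these cells in the glycolysis values was not tested.

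**Figure D5:**
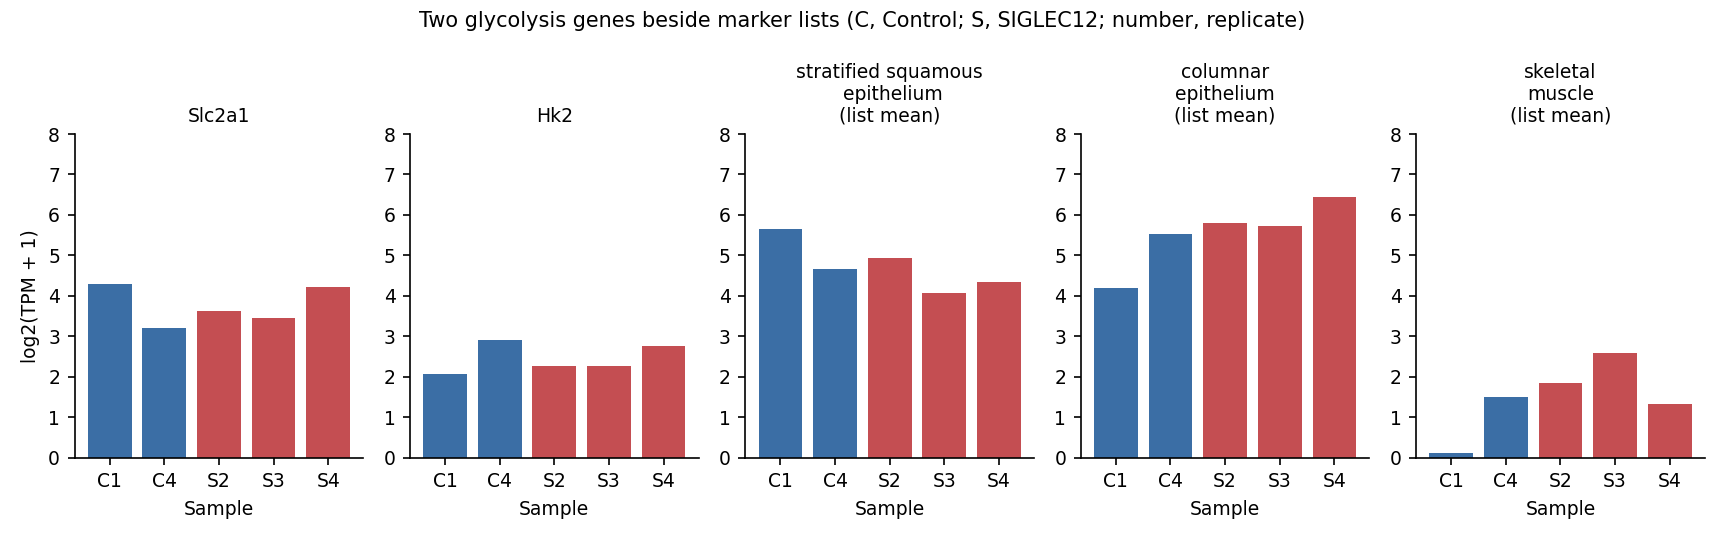
log2(TPM + 1) of Slc2a1 and Hk2 in each sample beside the mean log2(TPM + 1) of the stratified squamous, columnar epithelium and skeletal muscle marker lists, with C for Control and S for SIGLEC12. Control replicate 1 is the highest sample for Slc2a1 and for the squamous list, at a mean of 5.65, and the lowest for Hk2, the columnar list and the muscle list.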

How the data were processed

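RNA-seq of colon tumors from 5 mice was analysed. The authors deposited 1 table of log2 values for 52143 genes. Once the log was undone, each column gave a total from 999999 to 1000001, so that the deposited log2 values are log2(TPM + 1). The submitters' processing notes name kallisto 0.45.0 and GRCm38, whereas the study's methods name another kallisto version and a human reference. The labels give a stranded total RNA kit and the methods an mRNA kit. The methods also name 3 technical libraries per sample, and whether the columns average them is not stated. Gene identifiers matched GENCODE M21 in 98.45% of cases. TPM keeps no depth, so no counting interval is given. The samples are separate mice, and the third Control mouse of the series description was not used here. All value columns were mapped (0 left over).

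Groups came from the treatment labels. Genes with at least 1 TPM in at least 2 samples were tested with limma 3.58.1 (lmFit and eBayes with trend, R 4.3.3) on log2(TPM + 1), with Benjamini-Hochberg adjustment over all 10338 genes tested, with calls made at a 2-fold change and an adjusted p below 0.05. The pseudocount of 1 understates differences of low genes. Fold changes are SIGLEC12 minus Control. The study's count model was not used, since the table holds no counts. Single values were compared by two-sided exact permutation over the 10 assignments of 5 samples to groups of 2 and 3. Rescaled values multiplied TPM so that protein-coding genes had the same total in each sample. The fit was tested on simulated data. Other pseudocounts, filters, scalings, sample weights and the omission of each sample were tried. The 10 genes and all lists were chosen with earlier results of these data known. All 10 were named, as were tested glycolytic enzymes and carriers. Of the other pathway lists, the genes of highest and lowest difference and those at an unadjusted p of at most 0.05 could be named. Marker sums are over whole lists. Promoter windows are from RefSeq (GRCm38.p6). Shared sequence was counted in words of 31 bases over GENCODE transcripts.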

Additional observations from a re-analysis of the deposited data

How the results depend on the processing

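No paired analysis was possible because no label pairs a Control mouse with a SIGLEC12 mouse. Control and SIGLEC12 have 1 replicate number in common, and what the numbers mark is not stated. Across the pseudocount of 0.1, the filters and the sample weights, the 7 genes with groups apart kept a higher mean in SIGLEC12. Of the 10 genes, 5 passed an unadjusted p of 0.05 with the pseudocount of 0.1, where 3520 of the 10338 genes were higher by that rule. Without a filter 5 passed, beside 4316 higher genes of the 52143. With a filter of 5 TPM 4 passed, beside 1732 higher genes. With sample weights 2 passed, beside 2808 higher genes of the 10338, and Slc2a1 was at -0.057. For comparison, the main fit had 4 of the 10 genes and 3449 of the 10338 higher. Scaling decided the direction of several genes. Rescaled to the protein-coding total, Slc2a1 was at -0.49, Pfkp at -0.27, Eno1 at -0.040 and Pkm at -0.068, with 0 of the 10 genes higher and 460 genes higher and 652 lower in all. With median-ratio size factors, Slc2a1 was at -0.51, Pfkp at -0.28, Aldoa at -0.0090, Eno1 at -0.050 and Pkm at -0.079, with 0 of the 10 higher, 488 genes higher and 679 lower. With quantile normalization, Slc2a1 was at -0.51, Pfkp at -0.26, Aldoa at -0.087, Eno1 at -0.036 and Pkm at -0.11, with 0 of the 10 higher, 610 genes higher and 527 lower. Without a filter 668 genes were lower, and with a filter of 5 TPM 1732 were higher and 33 lower, as fewer genes were tested. The 10 genes made up a log2 ratio of 0.56 more of all TPM in SIGLEC12, and 0.00 more of protein-coding TPM.

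Leaving out each sample in turn, 0 (without Control replicate 1 or SIGLEC12 replicate 4) to 4 (without Control replicate 4) of the 10 genes were higher at that unadjusted p, and 1 without SIGLEC12 replicate 2 or 3. Over all genes, 1438 to 4416 were higher and 75 to 278 lower at that p, and 0 to 962 higher and 0 to 97 lower passed limma's adjusted p and fold, the highest counts being without Control replicate 4. Slc2a1 ran from -0.52 to 0.57, Hk2 from -0.48 to 0.36 and Pfkp from -0.15 to 0.53. After rescaling, Slc2a1 ran from -1.16 to 0.17, Hk2 from -0.85 to -0.18 and Pfkp from -0.52 to -0.025. Aldoa ran from -0.057 to 0.060, Eno1 from -0.24 to 0.11, Pkm from -0.18 to 0.037 and Ldha from -0.036 to 0.16. Isozyme shares in percentage points ran from -9.36 to 1.51 for Hk2, -3.66 to 7.86 for Pfkp, -2.35 to 6.69 for Eno1, -4.56 to -1.73 for Pkm and -0.77 to 0.063 for Ldha. As a log2 ratio of isozymes, with 1 TPM added to each side, Ldha was at 0.17. Ldhb was at only 0.351 to 1.51 TPM, so the added 1 weighed heavily in that ratio. Other causes were not tested. With 2 Control mice and no depth in TPM, small differences of single genes could not be shown here.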

Other observations

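The genes whose profile over the 5 samples was nearest to the mean profile of the 10 glycolysis genes were taken from 2718 protein-coding genes with a mean of at least 5 TPM, each profile being centred on its own mean. The nearest was Maea, a subunit of the CTLH ubiquitin ligase, at a root mean square distance of 0.0236 on the log2(TPM + 1) scale. Dync1i2, a dynein subunit, followed at 0.0260, then Ywhab, a 14-3-3 protein, at 0.0308, Ythdf2, a reader of methylated RNA, at 0.0313, and Eif4g2, a translation factor, at 0.0321. Maea was at 2.69 and 2.85 in the Controls and at 3.15, 3.02 and 3.43 in the SIGLEC12 samples, a difference of 0.43 (SE 0.20, limma adjusted p = 0.178).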
